A study of Bos grunniens with 6 samples.

Results

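The genes described here are those of the contractile apparatus and the actin cytoskeleton. They were chosen by symbol, with a fixed pattern of family names (myosin heavy and light chains, unconventional myosins, actins, actinins and actin-related proteins, tropomyosins, calponins, transgelins, caldesmon, supervillin, palladin, filamins, talins, vinculin, leiomodins, synaptopodins, PDLIM and ABLIM proteins, spectrins, ankyrins, capping proteins, Arp2/3 subunits, desmin, vimentin and titin) that was matched to the gene symbols of the m6A peak list. Since symbols stood in the peak list only, every member had at least 1 listed peak, and a family member without a peak was not analysed here. The pattern took 162 of 16186 peaks, on 77 of 8986 gene identifiers with a peak, under 69 symbols. The samples were testes obtained by castration from 3 cattle-yaks, named TES5, TES6 and TES7, at an age of 5 years. The cattle-yak is the hybrid of yak and cattle, and its males are sterile. Polyadenylated RNA of each testis was sequenced as an m6A immunoprecipitation (IP) library and as an input library, which gave 6 libraries of 1 condition, with no second group to compare it with. The 3 animals are the replicates of all expression values, and 1 peak list stood for all of them.

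Actin filaments are built from actin monomers, nucleated and branched by the Arp2/3 complex, closed at their ends by capping protein and bundled by actinins and filamins. Myosin II pulls on these filaments when its light chains are phosphorylated, which drives contraction of smooth muscle. In the testis, smooth muscle genes mark the peritubular myoid cells around the seminiferous tubules and the muscle of vessel walls, and actin bundles with their linkers form the junctions between Sertoli cells and germ cells. N6-methyladenosine (m6A) is a methyl mark on adenosines of mRNA, and a MeRIP peak is a stretch in which fragments bound by an m6A antibody exceed those of the input.

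Most peaks on these genes were annotated to exons. The exon class held 135 of 162 peaks (83.3%, Wilson 95% interval 76.8% to 88.3%), beside 70.3% of all listed peaks. The 3' UTR class held 17 peaks (10.5%, 6.66% to 16.2%), beside 20.8% of all listed peaks. The 5' UTR class held 10 peaks (6.17%, 3.39% to 10.99%), beside 8.82%. The exon share thus lay above, and the 3' UTR share below, the value for the whole list by more than counting error, whereas the interval of the 5' UTR share covered it. These intervals cover counting error only, and peaks of 1 gene are not independent. The shares were not matched for exon number, and these genes have many exons.

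Peaks on these genes were also wide. Widths were taken from the first to the last genomic base and so include introns. The median was 1803 bp against 1022 bp over all listed peaks, and the range ran from 146 bp on MYO5C to 332153 bp on MYL10. Narrow peaks, of at most 1000 bp, were 57 of 162 (35.2%, 28.3% to 42.8%), beside 49.8% of all listed peaks. Peaks over 10000 bp made up 16.7%, beside 14.4%. By class, the median width was 2258 bp against 1333 bp in exons and 1138 bp against 447 bp in 3' UTRs, but 1338.5 bp against 1985 bp in 5' UTRs.

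**Figure D1:**
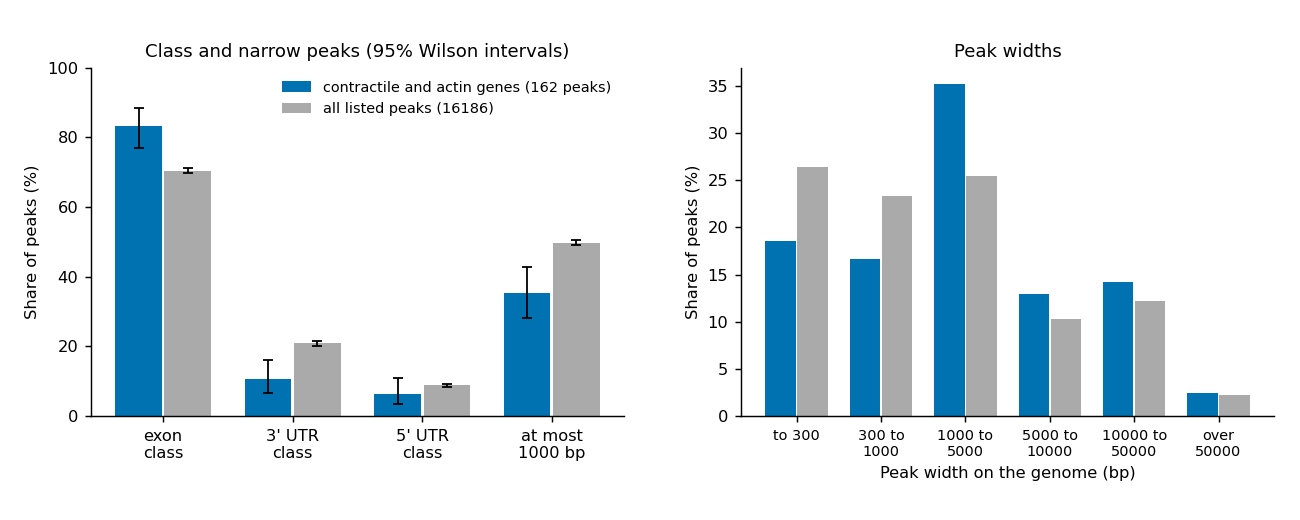
Left, share of peaks (%) in each annotation class and of peaks of at most 1000 bp, for the contractile and actin genes (blue) and all listed peaks (grey), with Wilson 95% intervals. Right, share of peaks (%) by width on the genome in bp; peaks over 1000 and up to 5000 bp made up 35.2% on these genes and 25.5% in the whole list.

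The differences in class and width were larger than counting error on long transcripts. On members whose transcript spanned at least 50000 bp, 7 of 97 peaks were of the 3' UTR class (7.22%, 3.54% to 14.2%), beside 19.1% of all listed peaks on transcripts of that length, and 26.8% were at most 1000 bp wide, beside 40.6%. Under 50000 bp, 10 of 65 peaks were of the 3' UTR class (15.4%, 8.58% to 26.1%), beside 22.1%, and 47.7% were narrow, beside 56.5%, with the intervals of both members' shares covering the value for the whole list. Whether the members of both length groups differed from each other was not tested. Along the transcript, peak centres lay past 80% of the span for 48.1% of the members' peaks (40.6% to 55.8%), beside 44.5%. They lay before 20% of it for 10.5% (6.66% to 16.2%), beside 16.9%. Among exon class peaks annotated to the gene's own exon in transcripts of at least 3 exons, 7 of 121 were annotated to the last exon (5.79%, 2.83% to 11.46%, beside 11.41%). To the first exon, 10 were annotated (8.26%, 4.55% to 14.55%, beside 12.4%). The intervals of both exon shares and of the share past 80% covered the values of the whole list. Shares at the first and last exon were not matched for exon number.

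A single peak was listed on 34 of 77 identifiers (44.2%, 33.6% to 55.3%), beside 54.0% of all genes with a peak. At least 4 peaks were listed on 12 identifiers (15.6%), beside 7.92%. The mean was 2.10 peaks per identifier against 1.80. These genes have many exons, and among transcripts of many exons the means were close to those of all genes: 2.53 against 2.52 peaks for transcripts of 20 to 39 exons, and 3.18 against 3.19 for 40 or more exons. Members of fewer exons had slightly fewer peaks than all genes, with 1.40 against 1.59 for 1 to 4 exons, 1.64 against 1.73 for 5 to 9 and 1.83 against 1.98 for 10 to 19. Across the 64 members with an exon number, Spearman's correlation of peak number with exon number was 0.46 (0.29 over 6496 genes with a peak), and across the 77 members that of peak number with mean FPKM was -0.20 (-0.003 over 8775 genes). These are descriptions across genes, which are not replicates.

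**Figure D2:**
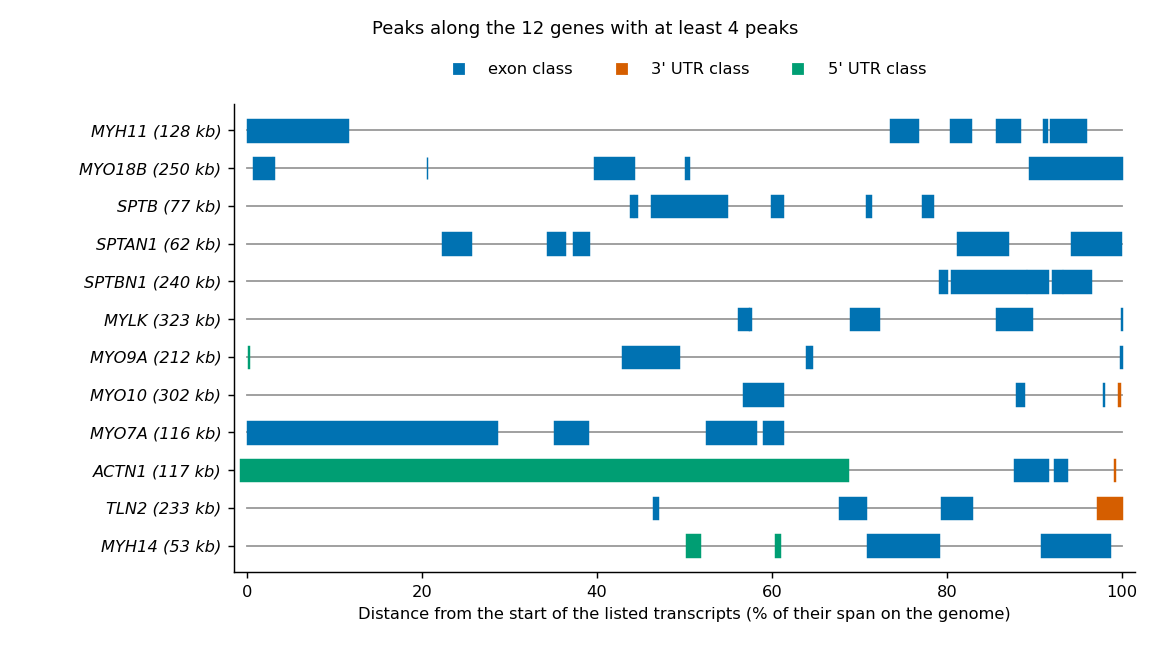
Peaks along the 12 identifiers with at least 4 peaks, as % of the span of the listed transcripts on the genome from start (0) to end (100), coloured by class, with the span in kb beside each symbol. MYH11, MYO18B and SPTB carried 6 peaks each, the SPTBN1 peaks lay in the last part of the span, and the 5' UTR class peak of ACTN1 covered most of its gene.

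Expression was given as FPKM (fragments per transcript length and library size) of the input libraries, so levels are per length and can be set side by side between genes. The members' mean FPKM had a median of 11.6, against 7.36 over all genes with a peak and 2.11 over all 20953 genes. All 3 animals reached an FPKM of at least 1 for 62 of 77 identifiers, beside 7629 of 8775 genes with a peak and 11402 of all 20953 genes. The lower quartile of the members' mean FPKM was 2.42, below the 2.80 of all genes with a peak. The members' coefficient of variation (CV, SD over mean) between animals had a median of 11.7%, against 11.6% for all genes with a peak and 12.2% for all genes. In bulk tissue, fewer cells of a type and less RNA per cell cannot be told apart. Of 29 hallmark symbols of contractile and cytoskeletal cells, 22 had a listed peak. Of all genes with FPKM of at least 1 in all animals, 7629 of 11402 had one. Whether these shares differ was not tested. No peak was listed under CALD1, TPM1, VIM, ACTG1, ANK2, ANK3 or TTN, whose FPKM was not analysed here.

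**Figure D3:**
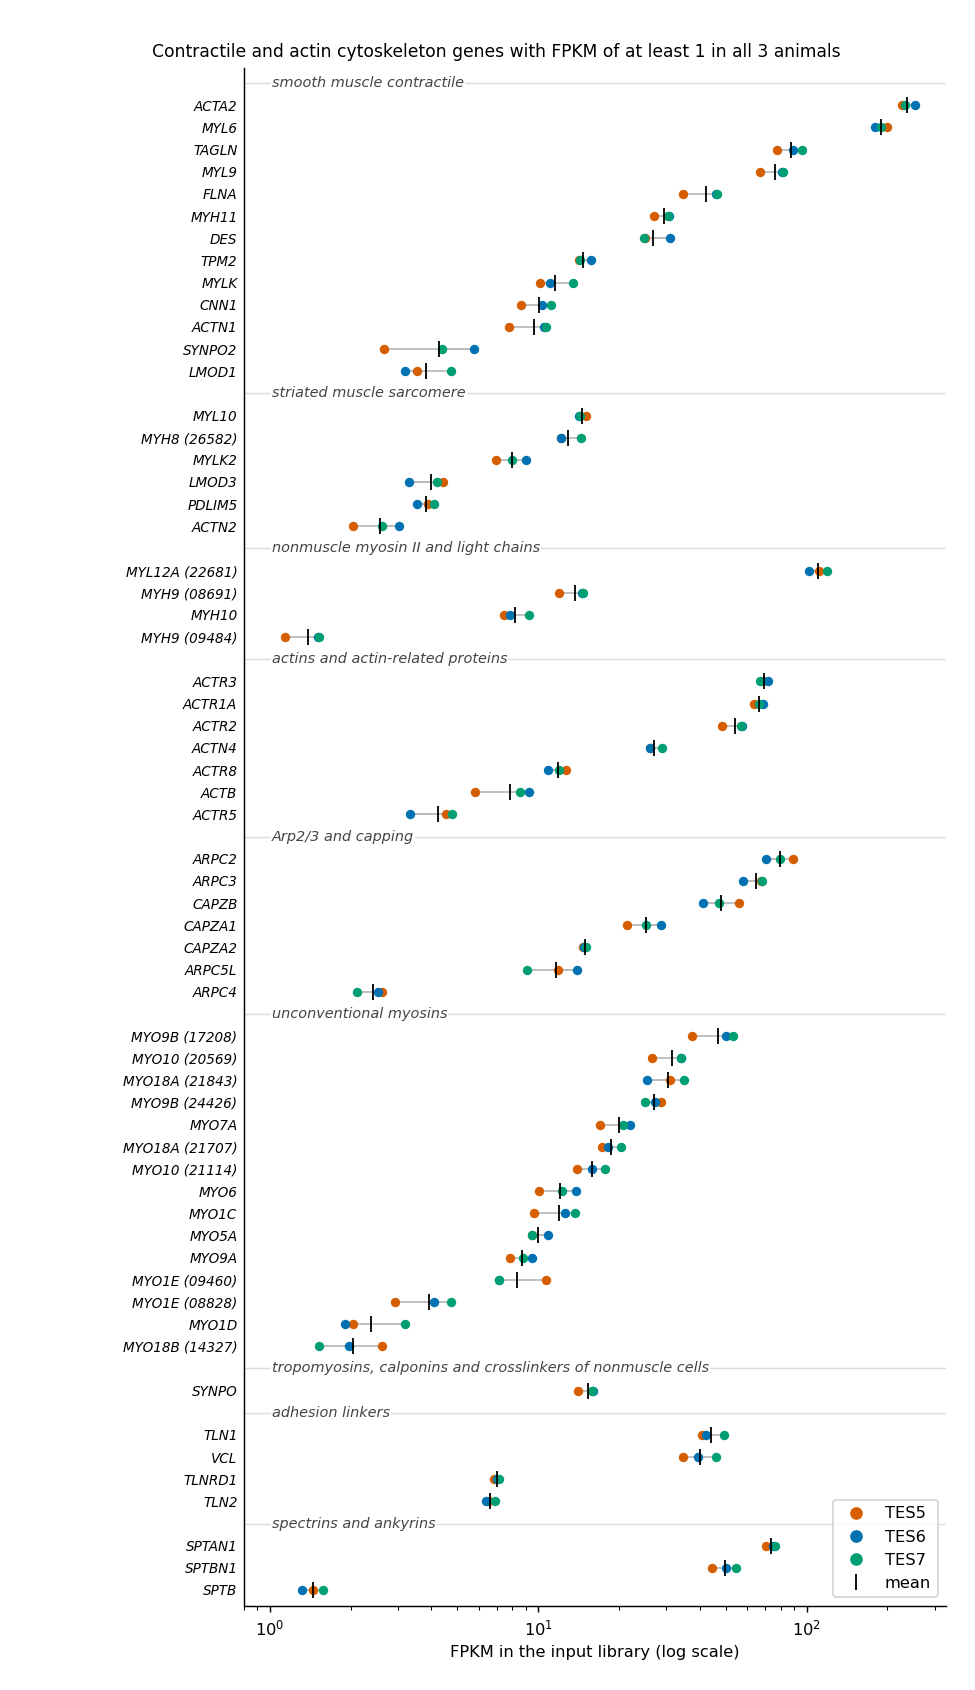
FPKM in the input library of each animal (log axis; points) and the mean (bar) of the identifiers with FPKM of at least 1 in all 3 animals (2 of the 62 are not drawn), by role; the digits after a symbol are the end of its gene identifier where the symbol stands on several. ACTA2 and MYL6 were the highest, and TES5 was the lowest animal for 38 of the 62.

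The smooth muscle group held the most abundant members. ACTA2, the smooth muscle alpha-actin that marks peritubular myoid cells, had FPKM values of 226, 254.1 and 232.3 in the order TES5, TES6 and TES7, which is kept for all values given by animal. MYL6, the essential light chain of smooth muscle and nonmuscle myosin, had 199, 180.3 and 188.9 FPKM. TAGLN (transgelin), an actin-binding protein of smooth muscle, had 77.9, 89.2 and 95.8 FPKM. ACTA2 was highest in TES6, MYL6 in TES5 and TAGLN in TES7, and the CV between animals was 6.20% for ACTA2 and 4.94% for MYL6. MYL9, the regulatory light chain of smooth muscle, followed at 67.0, 80.8 and 81.6 FPKM, and its range overlapped that of TAGLN.

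MYH11, the smooth muscle myosin heavy chain, had 26.9, 30.8 and 30.6 FPKM and overlapped with DES, the muscle intermediate filament desmin, at 24.9, 30.9 and 24.7 FPKM. TPM2, a tropomyosin that lies along the filament, had 14.2, 15.7 and 14.4 FPKM. MYLK, the myosin light chain kinase that starts contraction, had 10.2, 11.04 and 13.5 FPKM. CNN1 (calponin), an inhibitor of the myosin ATPase, had 8.66, 10.4 and 11.1 FPKM, and its range overlapped that of MYLK. TAGLN exceeded CNN1 by a ratio that was steady between animals, at 8.74 ± 0.221 (SD, n = 3), and ACTA2 exceeded TAGLN by 2.73 ± 0.262. At the low end, SYNPO2, an actin-bundling protein, had 2.67, 5.75 and 4.37 FPKM, and PDLIM3, a Z-disc linker, had 2.32, 2.40 and 0.503 FPKM, so that TES7 stood apart for PDLIM3.

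A high level and many peaks did not go together in this group. The 14 smooth muscle identifiers carried 29 peaks, 23 of the exon class and 3 of each UTR class. ACTA2 carried 1 peak, at exon 1 of 8 (build LU_Bosgru_v3.0, chr25:11489764-11495339, 5576 bp), and DES 1 peak of 198 bp in the 3' UTR class (chr2:32192855-32193052). MYH11 carried 6, all of the exon class. The first of these covered 14735 bp from exon 1 of 41 (chr26:31720199-31734933), and the other 5 were annotated to exons 20, 26, 28, 32 and 34. MYLK carried 5 peaks of 251 to 13293 bp, annotated to exons 7, 10, 18, 27 and 37 of 37. On ACTN1, the alpha-actinin that anchors filaments at adhesions, the 4 peaks joined an 81143 bp peak of the 5' UTR class and a 150 bp peak of the 3' UTR class with 2 exon class peaks. FLNA (filamin A), a crosslinker of filaments, had 42.3 ± 6.70 FPKM (SD, n = 3) and 1 peak of 1155 bp, at exon 4 of 48.

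Sarcomeric genes of striated muscle were mostly listed at low FPKM. Of 13 identifiers under 12 symbols, 6 passed the minimum of 1 FPKM in every animal, and the group's median was 1.096 FPKM. The heavy chains MYH3, MYH6 and MYH7, which belong to embryonic, atrial and slow muscle, had means of 0.584, 0.0830 and 0.249 FPKM, with ranges that did not overlap. The group carried 27 peaks, 24 of them of the exon class, with a median width of 838 bp. Every member has a peak by the way members were chosen, and of 30 sarcomeric symbols looked for, 12 had one. ACTN2, the Z-disc alpha-actinin, had 2.05, 3.03 and 2.62 FPKM and 2 peaks.

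The highest levels in this group belonged to identifiers whose gene models were unusual. MYL10, named as a regulatory light chain, had 15.1, 14.2 and 14.3 FPKM (CV 3.58%, among the 3 steadiest members with a mean of at least 10 FPKM). Its identifier (ENSBGRG00000025760) spanned 418441 bp with 23 exons, and its widest peak began at exon 1 (chr26:8233492-8565644). The other 2 MYL10 peaks were annotated to exons of another identifier (ENSBGRG00000025960), and in the RefSeq annotation of another yak assembly (Bosgru_T2T1.0) MYL10 is a neighbour of CUX1. MYH8, perinatal myosin, stood on 2 identifiers: one of 39 exons at 0.346 FPKM (mean) and one of 12 exons at 12.9 FPKM, the latter with 12.2, 12.2 and 14.4 FPKM by animal. Both MYH6 peaks lay on exons of an identifier listed at 0 FPKM in all 3 animals. The levels and peaks under the names MYL10, MYH8 and MYH6 are therefore uncertain as to the gene.

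Among the smooth muscle and nonmuscle heavy chains of myosin II, the order was the same in all 3 animals. MYH11 was followed by MYH9, the main nonmuscle heavy chain (ENSBGRG00000008691), at 11.9, 14.6 and 14.8 FPKM. MYH10, the nonmuscle heavy chain IIB, had 7.43, 7.88 and 9.22 FPKM. MYH14 had 0.935, 1.13 and 1.301 FPKM. The ranges of MYH11, MYH9 and MYH10 did not overlap, and MYH11 exceeded MYH9 by a ratio of 2.15 (2.07 to 2.26 over the animals). Of the light chains, MYL12A (ENSBGRG00000022681), which regulates nonmuscle myosin, had 110.8, 102.3 and 118.9 FPKM, between MYL6 and MYL9 with no overlap. A second MYL12A identifier was listed at 0 in TES6 and TES7 and at 0.0366 FPKM in TES5, and its 3 peaks were annotated to exons of TGIF1 and of another identifier.

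MYH11, with the highest level of these chains, also had the most peaks (6), but MYH14, with the lowest, carried 4, of which 2 were of the 5' UTR class. MYH10 carried 1 of 26867 bp, annotated to exon 20 of 42 (chr19:39872550-39899416). MYH9 carried 2, of 2673 and 8857 bp, at exons 22 and 29 of 42, with 2 more of 249 bp each on a second MYH9 identifier of 5 exons at 1.39 FPKM.

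Most listed subunits of the Arp2/3 complex, of which ACTR2 and ACTR3 resemble actin, lay well above the members' median FPKM. ACTR3 had 69.0, 71.6 and 66.8 FPKM, ACTR2 48.3, 57.6 and 57.0, ARPC2 89.2, 70.3 and 79.8, and ARPC3 67.6, 58.0 and 68.3 FPKM. The range of ACTR3 overlapped with those of ARPC2 and of ARPC3. ACTR1A, the actin-related protein of dynactin, had 66.3 ± 2.44 FPKM (SD, n = 3). The subunit ARPC4 stood apart at 2.62, 2.53 and 2.12 FPKM, on a model of 12 exons. ARPC4 is a neighbour of TTLL3 and TADA3 in the RefSeq annotation, and whether this level is that of ARPC4 is uncertain.

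Capping protein, a dimer of an alpha and a beta chain, had chains that ranked the animals in opposite order. The beta chain CAPZB had 56.2, 41.0 and 47.0 FPKM, highest in TES5, and the alpha chain CAPZA1 had 21.5, 28.7 and 25.3 FPKM, lowest in TES5, so that their ratio ran from 1.43 in TES6 to 2.61 in TES5. CAPZA2 had the smallest variation of the members with a mean of at least 10 FPKM, with 14.7, 14.9 and 15.1 FPKM (CV 1.28%). ARPC5L had 11.8, 13.98 and 9.10 FPKM (CV 21.0%). The Arp2/3 and capping group carried 9 peaks on 7 identifiers, 5 of the exon class, 3 of the 3' UTR class and 1 of the 5' UTR class. CAPZA1 and CAPZA2 were alike in having only a 3' UTR class peak, of 1166 and 1138 bp.

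ACTB, the cytoplasmic beta-actin that is usually among the most abundant mRNAs, was listed at only 5.84, 9.26 and 8.55 FPKM under its identifier (ENSBGRG00000018069), which ACTA2 exceeded 27.2-fold to 38.7-fold. Its single peak lay at exon 2 of 5 (chr26:3447045-3451007). No other identifier with a peak was listed under this symbol, and whether this one holds all beta-actin expression is uncertain, so the ratio to ACTA2 is uncertain too. ACTN4, the nonmuscle alpha-actinin, had 26.1, 26.1 and 29.1 FPKM, above ACTN1 (7.78, 10.5 and 10.7) and ACTN2 with no overlap in range, and carried 1 peak of 47742 bp from exon 1 of 20. ACTR5 and ACTR8, nuclear actin-related proteins of chromatin remodelling, had means of 4.22 and 11.9 FPKM and carried 2 and 3 peaks.

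Unconventional myosins move cargo or link membranes to actin, and they made up the largest group, with 19 identifiers under 14 symbols and 41 peaks, 35 of the exon class. MYO9B, a myosin with a GTPase-activating domain, was the highest, with 37.3, 50.2 and 53.3 FPKM on its identifier of 40 exons (CV 18.0%). MYO10, the filopodial myosin, had 26.5, 33.9 and 34.0 FPKM. Both were lowest in TES5. MYO6, which moves toward the pointed end of the filament, had 10.04, 13.8 and 12.3 FPKM, and MYO5A, a vesicle carrier, had 9.51, 10.9 and 9.48 FPKM. MYO1C had 9.62, 12.6 and 13.7 FPKM. In the order of means, neighbours overlapped in range in 12 pairs and did not in 6, so the order in the middle of this group is not resolved by 3 animals.

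MYO18B carried the most peaks by symbol, 7 on 2 identifiers, at a mean of only 2.04 FPKM on the identifier that held 6 of them. MYO9A carried 5 peaks at 8.70 FPKM and MYO9B only 1, of 401 bp, on its longer identifier. The second identifiers of MYO18A and MYO18B had 1 peak each, annotated to an exon of the first identifier. The second MYO10 identifier, a model of 2 exons on the opposite strand, had 1 peak of 63503 bp over 99.6% of its span, and 15.8 FPKM. In all, 8 symbols stood on 2 identifiers each, with 35 peaks, and 9 of 135 exon class peaks (6.67%) lay on exons of an identifier other than their own, beside 2.77% in the whole list.

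Adhesion linkers and spectrins were steady in order. TLN1 (talin 1), which ties integrins to actin, had 40.9, 42.0 and 49.2 FPKM, and VCL (vinculin), which strengthens that link, had 34.5, 39.5 and 46.0 FPKM. TLN1 was above VCL in each animal, although their ranges overlapped. TLN2 had 6.59, 6.37 and 6.91 FPKM, and TLN1 exceeded it by 6.64 ± 0.462 (ratio, SD, n = 3). The alpha-spectrin SPTAN1, which lines the membrane with a spectrin and actin net, had 70.4, 74.9 and 76.1 FPKM. Its partner SPTBN1 had 44.5, 49.9 and 54.4 FPKM, and the erythroid beta chain SPTB had 1.45, 1.31 and 1.58 FPKM. None of these 3 ranges overlapped.

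All 16 spectrin peaks were of the exon class, and the 3 genes carried 5, 5 and 6 peaks. In SPTBN1, the 5 peaks were annotated to exons 15, 18, 28, 30 and 32 of 38, the widest of them 20518 bp. In SPTAN1, they were spread from exon 4 to exon 50 of 53 and were 1183 to 3634 bp wide. SPTB, at a level 34.4 ± 3.62 times lower than SPTBN1, carried 6 peaks of 250 to 6661 bp. TLN2 carried 4 peaks with 1 of the 3' UTR class, and TLN1 carried 3 narrow ones of 234, 361 and 983 bp. VCL carried 1 of 16557 bp, annotated to exon 6 of 22.

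MYO10 and MYH9, on both identifiers of each, were lowest in TES5, as were most of the members, whereas the second MYO9B identifier was highest in TES5 at 28.6, 27.1 and 25.03 FPKM. Both identifiers of each symbol lie apart on the genome. Those of MYO10 lie on opposite strands, so as annotated they are not the same gene. For MYH9 and MYO9B, whose identifiers lie on the same strand, whether they belong to the same gene is uncertain. Of the 62 identifiers with FPKM of at least 1 in all animals, 38 were lowest in TES5 (61.3%), beside 37.6% of all 11402 such genes and 41.8% of the 7629 with a peak. Only 10 were highest in TES5 (16.1%), beside 39.7% of all and 35.9% of those with a peak, and 33 were highest in TES7 (53.2%, beside 32.4% and 34.5%). The median difference on the log2(FPKM + 1) scale was 0.15 for TES6 minus TES5 and 0.18 for TES7 minus TES5, against -0.02 and 0.00 over all genes and 0.01 and 0.03 over those with a peak. TES7 minus TES6 had a median of 0.02, against 0.01 over all genes. Of the summed FPKM, the members took 0.613%, 0.697% and 0.703%. Each animal is 1 library, so no test between animals could be made.

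By role, TES5 was the lowest animal for 10 of 13 smooth muscle genes, 10 of 16 unconventional myosins, 3 of 4 nonmuscle myosin II genes, 3 of 4 adhesion linkers, 2 of 3 spectrins and both remaining crosslinkers. It was lowest for 3 of 6 sarcomeric genes, 3 of 7 actins and actin-related proteins and 2 of 7 Arp2/3 and capping genes. ACTR3, ARPC2, CAPZB and MYL6 were not among the genes lowest in TES5. Whether the groups differ was not tested.

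The share moved with the number of exons in all genes, not in these alone. Over all genes with an exon class peak and FPKM of at least 1, TES5 was lowest for 38.01% of those with 1 to 4 exons, 37.4% with 5 to 9, 43.4% with 10 to 19, 56.2% with 20 to 39 and 72.5% with 40 or more. Among members it was lowest for 4 of 7, 7 of 12, 2 of 6, 9 of 12 and 12 of 15. Members of 40 or more exons, such as MYH11, MYH9, FLNA, MYO10 and SPTAN1, thus stood at 80% beside 72.5%. The part of exon number in the members' pattern was not tested further.

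**Figure D4:**
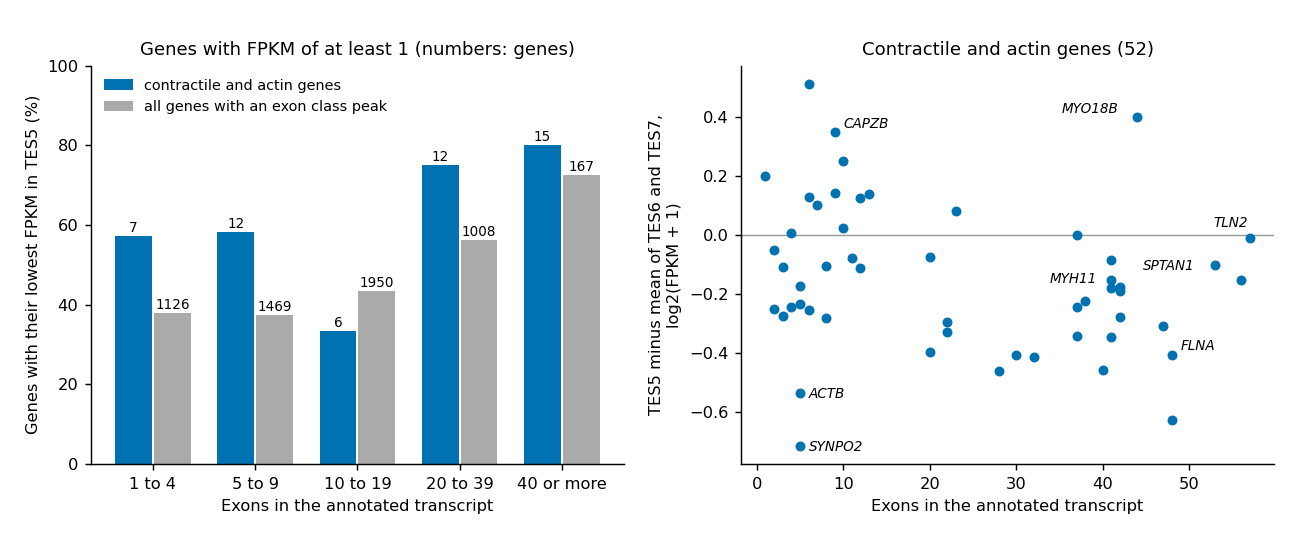
Left, share of genes (%) with their lowest FPKM in TES5 by number of exons, for the contractile and actin genes (blue) and all genes with an exon class peak (grey), with the number of genes above each bar. Right, TES5 minus the mean of TES6 and TES7 in log2(FPKM + 1) for each of 52 members against its exon number; most members of 20 or more exons lie below 0, with MYO18B, MYL10 and, by 0.0016, SPTB above it, and ACTB and SYNPO2 lie low with 5 exons.

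Cell type markers were set beside this pattern for the symbols with a listed peak. A marker without a peak had no symbol here, and the numbers with a peak only show which values were summed. Of 9 peritubular myoid markers that are not members, 4 had a peak, and their summed FPKM was 31.7, 41.5 and 34.1. The sum of 7 of 13 Sertoli cell markers was 258, 251.8 and 268.5 FPKM. Without TF, whose values set that order, it was 170.7, 189.2 and 174.5 FPKM, lowest in TES5. Taken singly, 4 of the 8 Sertoli identifiers were lowest in TES5, and INHBB was highest there. STAR, the 1 of 8 Leydig cell markers with a peak, had 100.2, 107.7 and 111.9 FPKM. For 3 of 12 spermatocyte and spermatid markers (SYCP1, SYCP2 and SYCP3) the sum was 44.2, 34.2 and 32.7 FPKM, highest in TES5, with 1 of their 6 identifiers listed at 0 in all animals. For 4 of 10 spermatogonial markers it was 27.1, 28.6 and 35.1 FPKM, and for 7 of 9 endothelial and blood cell markers 395.2, 374.4 and 388.6 FPKM. CD74 alone held most of the last sum, and the other 6 endothelial and blood cell markers summed to 18.6, 21.9 and 19.2 FPKM, lowest in TES5. Most of them did not follow this sum: CDH5 and PTPRC were lowest in TES5, but KDR, PECAM1, TEK and VWF in TES7. The 14 identifiers of the smooth muscle group summed to 705.7, 771 and 759.7 FPKM. This sum includes MYL6, a light chain also of nonmuscle myosin, at 199, 180.3 and 188.9 FPKM, highest in TES5. It also includes the filament crosslinker FLNA and the adhesion actinin ACTN1, so it is not a sum of cell type markers alone. The part of cell composition in the members' pattern was not tested.

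Regulators of actin outside the symbol pattern gave a further set of values. Of 59 such symbols (formins, ROCK kinases, myosin phosphatase subunits, ezrin family, tensins, WASP family and others), 39 had a peak, on 45 identifiers with 87 peaks. Of all genes with FPKM of at least 1 in all animals, 7629 of 11402 had a peak. Of the 87 peaks, 60 were of the exon class, 21 of the 3' UTR class and 6 of the 5' UTR class. TES5 was lowest for 25 of the 41 identifiers of these regulators with FPKM of at least 1 (61.0%, beside 41.8% of all genes with a peak), and TES7 was highest for 21 (51.2%, beside 34.5%). RHOA, the GTPase upstream of the ROCK kinases, was the most abundant of them at 137.2, 131.8 and 131.1 FPKM. ROCK1 and ROCK2, kinases that promote phosphorylation of myosin light chains, had 5.59, 5.25 and 5.78 FPKM and 3.95, 4.67 and 4.74 FPKM. A second ROCK2 identifier had 0.654, 0.484 and 0.466 FPKM, highest in TES5. PPP1R12A, the targeting subunit of myosin phosphatase, carried 5 peaks at 13.5, 14.4 and 14.5 FPKM. TNS1 (tensin 1), an adhesion protein, had 9.39, 14.5 and 16.1 FPKM, lowest in TES5 as VCL was. SRF, the transcription factor of smooth muscle genes, had 19.8, 21.1 and 22.4 FPKM, and its coactivator MYOCD (myocardin) 0.782, 0.958 and 1.27 FPKM, in the same order of animals.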

How the data were processed

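m6A IP and input libraries of 3 cattle-yak testes were sequenced by the authors. Reads were trimmed with Trimmomatic and aligned with HISAT2 2.0.4, per the submitters' processing notes. The authors called peaks with MeTDiff from IP against input and annotated them with ChIPseeker. The deposited list holds positions on LU_Bosgru_v3.0, classes and genes, without scores or values per animal. FPKM values of the 3 input libraries were computed and deposited by the authors, and the program is not given in the sources used here. FPKM keeps no read numbers and the depth is not in these tables, so no interval or floor could be given for a gene. The summed FPKM was 280939.9 to 302365.1 per library.

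Members, gene lists and roles were chosen with earlier results of these data known. Named were, per role, the 3 identifiers highest in FPKM and the 2 with most peaks, then the 5 largest and 3 smallest CVs at a mean of at least 10 FPKM, the 3 widest and 3 narrowest peaks, hallmark genes, genes at 0 and symbols on several identifiers. Members outside this rule, and the regulators named, were chosen after their values were seen. Shares were given with Wilson 95% intervals, and log2 differences used a pseudocount of 1 and genes with FPKM of at least 1 in all libraries. No test between groups was possible with 1 condition. The scripts were tested on simulated data. Computations were done in Python 3.11.15 with pandas 2.3.3 and numpy 2.4.6, and figures were drawn with matplotlib 3.10.9.
Values of some members are not reported here.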

Additional observations from a re-analysis of the deposited data

How the results depend on the processing

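Weighting peaks by width moved the exon share from 83.3% to 88.3% and the 3' UTR share from 10.5% to 2.12%. Leaving out members under 1 FPKM moved the median of the mean FPKM from 11.6 to 14.6, and without each animal in turn it ran from 10.5 to 11.4. Merged intervals, narrow peaks, counts by symbol and rescaled libraries moved no other share, median or count beyond its interval or spread. The means of 54 named identifiers moved by at most 1 SD in all 216 alternative values, but this limit could not have been passed. With so few animals, leaving out any single animal cannot move a mean by 1 SD. The rescaling factors, 1.002 to 1.006, were also too small for it, since the smallest CV of these identifiers was 1.28% (CAPZA2). These values therefore do not show how firm the means are. Alternatives chosen after seeing the data left 153 peaks on exons of the listed gene, and gave 40 members lowest in TES5 after rescaling by the median ratio (37.98% of all genes), 44 by the library sum (49.2%) and 32 of 52 without symbols on 2 identifiers or exons of another identifier. The split by transcript length or exon number and the marker sums without CD74 or TF were also chosen then. No paired analysis was possible because all animals share 1 list of peaks and no IP library has FPKM values.

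A gene in the FPKM table without a peak has no symbol here, so families are complete only for genes with a peak. Peak widths include introns, and the depth of a library is not known from these values.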
